A study of Homo sapiens with 40 samples.

Results

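The genes described here are 10 Krüppel-like factors (KLFs), KLF2, KLF3, KLF4, KLF5, KLF6, KLF9, KLF10, KLF11, KLF13 and KLF15, taken from the count table as the rows whose name equals a member, 10 of 44584 gene names. The RNA came from BT474, a breast ductal carcinoma cell line with high HER2 that is sensitive to trastuzumab, and from BT474R, a resistant line that is 1 clone of BT474 cells grown in the presence of trastuzumab. Cells of both lines were serum starved, and T0 was collected at the end of starvation. The other cells received 50 ng/mL of EGF, the ligand of the EGF receptor, 10 ng/mL of heregulin (HRG), the ligand of HER3 and HER4, or water as vehicle, and were collected after 1, 12 or 24 h. All treatments, vehicle included, were given in freshly made starvation medium, so vehicle cells differ from T0 by the change of medium and by time in culture, and these cannot be told apart. The 20 groups of line, treatment and time hold 2 libraries each, 40 in all.

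Krüppel-like factors are zinc finger transcription factors that bind GC-rich and CACCC sequences in promoters and enhancers, and they share binding sites with the SP factors. Some mainly activate transcription, such as KLF2, KLF4, KLF5 and KLF6, while KLF3 recruits the corepressor CtBP and KLF9, KLF10, KLF11 and KLF13 recruit Sin3A. In epithelial cells, KLF4 is known for growth arrest and differentiation and KLF5 for proliferation, and KLF2 and KLF6 are among the genes that respond within an hour to serum, growth factors or flow.

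Library totals lay between 19200632 and 29098915 counts in BT474 and between 16794594 and 33387936 in BT474R. Levels are CPM, counts relative to the library total after its adjustment by TMM, on the usual scale of that unit, given as the values of libraries 1 and 2 of a group, and are compared between groups and not between genes. A member was called when the Benjamini-Hochberg adjusted p of edgeR's quasi-likelihood test was under 0.05, with the adjustment made over the whole table, 25146 genes in BT474, 24287 in BT474R and 24641 in the fit of both lines. "Rose" and "fell" are used only for called differences, fold changes are on the log2 scale with their standard error (SE), and the percentage beside a count is the share of all genes called in either direction in that comparison. Replicates of each group differed by more than counting noise (median chi-square 0.595 to 2.56, with 0.455 from counting noise), and most in HRG-treated BT474R at 24 h. All 9 markers of luminal epithelium were found in every library, with GATA3 at 307 to 546 CPM in BT474 and 10.6 to 55.5 CPM in BT474R. Of 12 markers of other cell types, DCN, PDGFRB, PTPRC and CD3E had 3 counts or fewer in all 40 libraries. COL1A1, VWF and TP63 were above 3 counts in all 40, and CDH5 in all but 1. VWF was at 12.8 to 23.0 CPM in BT474 and 8.61 to 15.8 CPM in BT474R. TP63 was at 3.01 to 9.87 CPM and 0.818 to 2.24 CPM, and CDH5 reached 3.69 CPM and 7.61 CPM. The 12 summed to 99.3 to 128 CPM in BT474 and 189 to 313 CPM in BT474R, mostly COL1A1 (75.1 to 105 CPM and 169 to 295 CPM), and their part in the line differences was not tested.

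Promoter sequences of 8 of the 10 members were matched in RefSeq (10 start sites, GRCh38.p14), and KLF3 and KLF10 were not. The 250 bases before the start are shown for KLF2 and KLF6, which had the largest early rise, and for the second start of KLF11, which was higher in BT474R than in BT474, each from 5′ to 3′ on the strand of the gene. The KLF2 sequence is chr19:16324576-16324825 on the plus strand, with a MEF2 site in capitals. The KLF6 sequence is chr10:3785210-3785459 on the minus strand, with its GC boxes in capitals. The KLF11 sequence is chr2:10043971-10044220 on the plus strand, with a full CRE in capitals.
KLF2: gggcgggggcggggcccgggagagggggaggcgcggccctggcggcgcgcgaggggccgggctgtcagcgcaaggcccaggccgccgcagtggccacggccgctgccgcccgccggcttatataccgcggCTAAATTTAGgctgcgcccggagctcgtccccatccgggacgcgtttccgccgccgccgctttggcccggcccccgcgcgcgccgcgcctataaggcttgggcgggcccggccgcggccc
KLF6: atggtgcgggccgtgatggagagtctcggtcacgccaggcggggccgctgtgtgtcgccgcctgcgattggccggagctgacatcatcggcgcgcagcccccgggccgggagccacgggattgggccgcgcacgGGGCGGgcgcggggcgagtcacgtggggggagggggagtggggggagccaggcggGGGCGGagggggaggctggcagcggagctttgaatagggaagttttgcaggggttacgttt
KLF11: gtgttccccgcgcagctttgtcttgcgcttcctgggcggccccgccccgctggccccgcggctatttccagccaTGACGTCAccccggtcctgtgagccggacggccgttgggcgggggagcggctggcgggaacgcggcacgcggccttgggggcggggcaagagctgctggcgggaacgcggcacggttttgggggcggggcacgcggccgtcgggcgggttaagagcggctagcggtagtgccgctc

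Motifs were searched on both strands from 250 bases before to 50 bases after each start, and a match is a description of the letters, not a binding site. The MEF2 site of KLF2 lies at -120 to -111 from the start, and 2.99% of 35116 RefSeq promoters of this length hold one. The full CRE of KLF11 lies at -176 to -169, and 1.85% of promoters hold one. It contains the short site TGACG on both strands, which is also found 2 times in KLF4 and KLF15 and 1 time in KLF13 and in the second start of KLF5 (24.6% of promoters). GC boxes (GGGCGG, 45% of promoters) numbered 6 in KLF2, 2 in KLF6 and 7 at the second start of KLF11. No entry of a member held the CArG box of serum response factor (1.29% of promoters) or the AP-1 site TGANTCA (7.71%). CACCC (59.9%) and TATAAA (11.5%), which were also searched, were found in 4 and 1 of the 10 entries.

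KLF members were called with both ligands in BT474, and more often with EGF than with HRG in BT474R. After 1 h, EGF and HRG each raised KLF2, KLF6, KLF9 and KLF10 in BT474, 4 of 10 members (2.19% and 2.77% of all genes were called), and no member fell. In BT474R, EGF raised KLF2 and KLF6 (0.457%). HRG changed 0 of 10 members there by edgeR (0.169%), with 2 at an unadjusted p under 0.05 and 0 called by DESeq2.

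At 12 h in BT474, EGF raised KLF2, KLF3 and KLF6 and lowered KLF13 (16.0% of all genes called), and HRG raised these and KLF10 and lowered KLF9 and KLF13 (25.8%). At 24 h, KLF2, KLF3, KLF6 and KLF10 were above vehicle with EGF, and KLF13 was below it (16.4%). HRG at 24 h raised the same 4 genes and KLF5, and lowered KLF9 and KLF13 (24.1%). In BT474R, EGF raised KLF2, KLF3 and KLF6 at 12 h and 24 h, and lowered KLF4 and KLF13 at both times and KLF5 at 12 h (12.0% and 17.3%). HRG raised KLF2 at 12 h (4.12%) and changed 0 members at 24 h by edgeR (2.78%), with 2 at an unadjusted p under 0.05 and 0 called by DESeq2. Over the 12 comparisons of ligand with vehicle, 44 of 120 member tests were called, 33 up and 11 down, beside 10.4% of all gene tests. EGF and HRG share their vehicle libraries at each time.

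**Figure D1:**
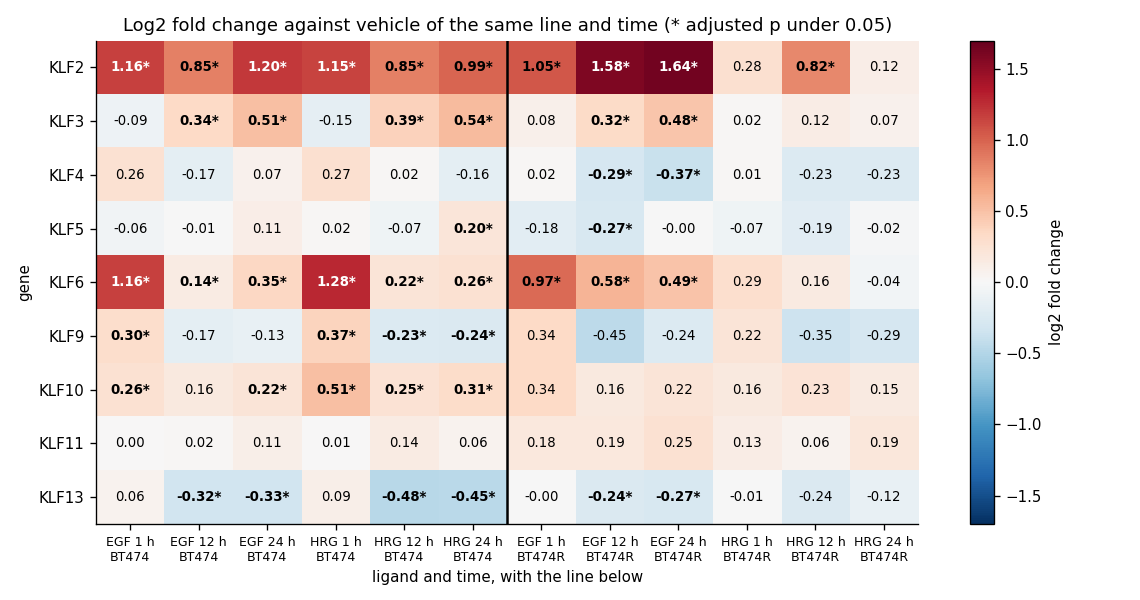
Log2 fold change of 9 members against vehicle of the same line and time, as colour and number, with an asterisk where the edgeR adjusted p was under 0.05. KLF2 was called in 10 of 12 columns, KLF11 in 0, and the HRG columns of BT474R hold 1 call in all. KLF15, at few counts, is not drawn.

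KLF2, a factor of quiescence that endothelial cells induce through ERK5 and MEF2, was at 11.4 and 13.1 CPM at T0 in BT474 and rose to 40.7 and 40.6 CPM in vehicle cells at 1 h. With EGF it reached 91.5 and 92.5 CPM at 1 h, and with HRG 88.9 and 93.1 CPM, while vehicle cells were back at 12.7 and 13.5 CPM by 12 h and 11.4 and 10.7 CPM by 24 h. Each ligand library at 1 h was above each vehicle library, and the libraries of the 2 ligands overlapped. The log2 fold change at 1 h was 1.16 ± 0.06 for EGF (edgeR adjusted p = 9.31e-18) and 1.15 ± 0.06 for HRG (edgeR adjusted p = 1.35e-17).

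At 12 h in BT474, KLF2 stood at 22.7 and 25.2 CPM with EGF and at 24.6 and 23.8 CPM with HRG, and at 24 h at 25.7 and 25.3 CPM and at 23.2 and 21.1 CPM. These levels were below those at 1 h, a difference that was not tested within a treatment, and each ligand library was above the vehicle libraries of its time. The fold changes were 0.85 ± 0.08 for both ligands at 12 h, and 1.201 ± 0.08 for EGF and 0.99 ± 0.08 for HRG at 24 h. The highest edgeR adjusted p among these was 2.59e-10.

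In BT474R, KLF2 was at 14.0 and 15.4 CPM at T0, 49.8 and 50.8 CPM with vehicle at 1 h and 102 and 106 CPM with EGF at 1 h. HRG libraries at 1 h, at 64.3 and 57.2 CPM, lay above vehicle but below both EGF libraries. The EGF effect was 1.05 ± 0.09 (edgeR adjusted p = 1.48e-07), and the HRG value of 0.28 ± 0.09 did not pass (edgeR adjusted p = 0.827). Only KLF2 and KLF6 had an unadjusted p under 0.05 with HRG at 1 h, and without a filter on low counts edgeR called 2 members there. HRG against EGF, tested in itself, was -0.77 ± 0.09 (edgeR adjusted p = 8.13e-05), and KLF2 and KLF6 were the members called, both lower with HRG (0.0494% of all genes).

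At the later times in BT474R, KLF2 in EGF libraries held 47.6 and 51.9 CPM at 12 h and 40.05 and 40.04 CPM at 24 h, against 17.2 and 16.0 CPM and 12.4 and 13.4 CPM with vehicle. HRG libraries held 29.1 and 30.0 CPM at 12 h and 11.4 and 16.3 CPM at 24 h, where they overlapped vehicle. EGF effects were 1.58 ± 0.10 and 1.64 ± 0.11, and HRG effects 0.82 ± 0.10 at 12 h (edgeR adjusted p = 2.35e-05) and 0.12 ± 0.12 at 24 h (edgeR adjusted p = 0.722). HRG was below EGF by -0.77 ± 0.09 at 12 h and -1.52 ± 0.11 at 24 h, a 2.86-fold difference (edgeR adjusted p = 2.47e-09). The 24 h HRG value rests on replicates that differ: without replicate 1 it was 0.33 and called, and without replicate 2 it was -0.16 and not called.

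**Figure D2:**
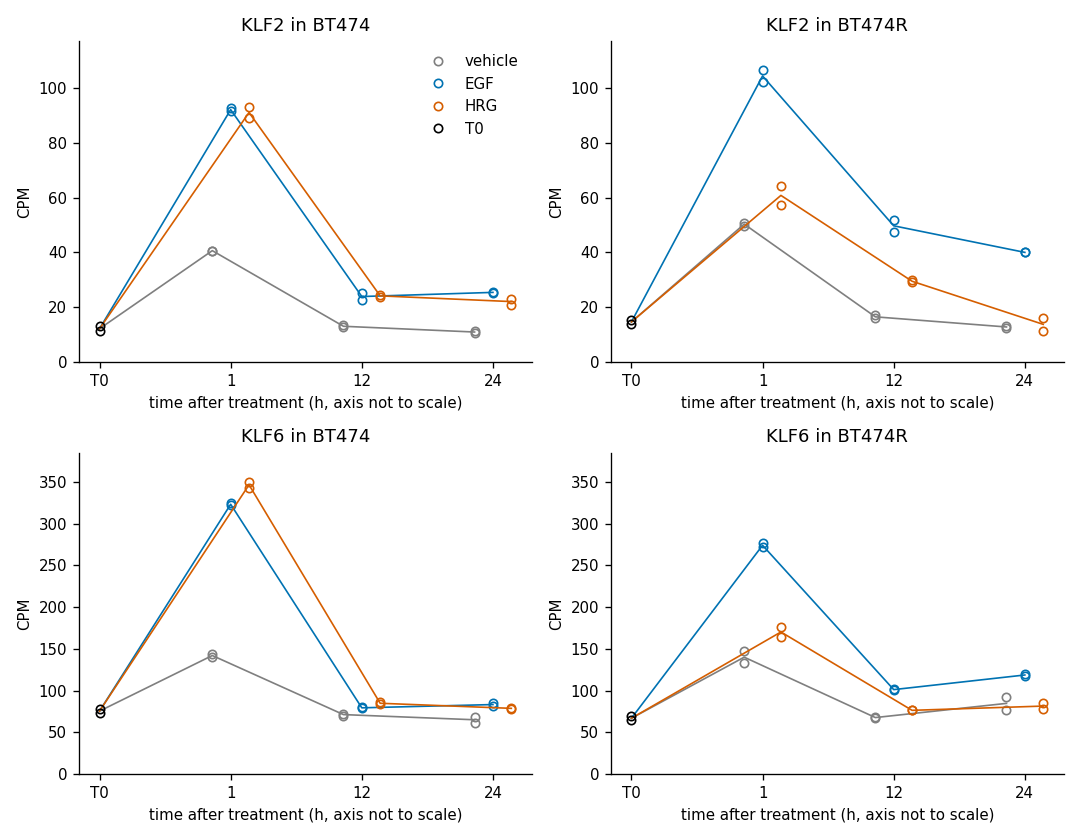
CPM of KLF2 (top) and KLF6 (bottom) in each library (open circles) and the mean of 2 libraries (lines), by treatment and time, in BT474 (left) and BT474R (right). In BT474 both ligands peak together at 1 h, while in BT474R the HRG libraries at 1 h lie near vehicle and EGF libraries stay above the others at 12 h and 24 h.

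KLF6, an activator of GC-rich promoters with a known role in growth control, had a sharper peak. In BT474 it was at 77.8 and 73.3 CPM at T0, 144 and 140 CPM with vehicle at 1 h, 324 and 322 CPM with EGF and 350 and 343 CPM with HRG. These 4 sets did not overlap. The effects were 1.16 ± 0.04 for EGF (edgeR adjusted p = 2.84e-22) and 1.28 ± 0.04 for HRG (edgeR adjusted p = 1.22e-23). By 12 h the levels were 80.2 and 78.7 CPM with EGF and 83.5 and 86.4 CPM with HRG, close to the 72.6 and 70.2 CPM of vehicle.

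The KLF6 effect in BT474 was smaller at 12 h than at 1 h, by -1.02 ± 0.07 for EGF (edgeR adjusted p = 1.60e-14) and -1.05 ± 0.07 for HRG (edgeR adjusted p = 3.02e-15). The 12 h values were 0.14 ± 0.05 for EGF (edgeR adjusted p = 0.0491) and 0.22 ± 0.05 for HRG (edgeR adjusted p = 4.69e-04). The EGF value at 12 h lay between 0.12 and 0.16 and was not called without any 1 of its 4 libraries, nor in 1 fit of all 40 libraries. At 24 h, with vehicle at 69.1 and 61.3 CPM, EGF libraries were at 81.3 and 85.6 CPM (0.35 ± 0.05) and HRG libraries at 79.7 and 78.1 CPM (0.26 ± 0.05), and both effects were called, with and without each library.

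In BT474R, KLF6 was at 64.8 and 69.3 CPM at T0, 133 and 147 CPM with vehicle at 1 h, 272 and 276 CPM with EGF and 176 and 165 CPM with HRG. The EGF effect was 0.97 ± 0.07 (edgeR adjusted p = 9.88e-09). The HRG value was 0.29 ± 0.07 and did not pass (edgeR adjusted p = 0.174), although both HRG libraries were above both vehicle libraries, and it was called in 1 fit of all 40 libraries and without a filter. HRG was below EGF by -0.68 ± 0.07 at 1 h (edgeR adjusted p = 1.58e-05).

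KLF6 was also above vehicle with EGF later in BT474R, at 102 and 100.5 CPM at 12 h (vehicle 68.1 and 67.6) and 117 and 120 CPM at 24 h (vehicle 76.8 and 92.8), effects of 0.58 ± 0.07 and 0.49 ± 0.07. The HRG libraries were at 76.4 and 76.6 CPM and at 78.2 and 84.9 CPM, and neither HRG value was called. HRG was below EGF by -0.42 ± 0.07 at 12 h and -0.53 ± 0.07 at 24 h (edgeR adjusted p = 0.00193 and 4.03e-05). The 12 h difference was not called without EGF replicate 1, at -0.40. By edgeR, KLF2 and KLF6 were the members called at 12 h (1.42% of all genes) and KLF2, KLF3 and KLF6 at 24 h (5.18%), all lower with HRG. DESeq2 also called KLF3 at 12 h. In BT474, HRG against EGF gave 0 calls among members by edgeR and by DESeq2 at 1, 12 and 24 h (0.139%, 2.17% and 0.768% of all genes), with 2, 1 and 2 members at an unadjusted p under 0.05. Over both lines, 7 of 60 member tests of HRG against EGF were called, beside 1.61% of all gene tests.

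The line difference in the KLF2 and KLF6 responses was tested as an interaction in 1 fit of both lines. At 1 h, the HRG effect was smaller in BT474R than in BT474 for KLF6 (-1.01 ± 0.08, edgeR adjusted p = 1.15e-10) and KLF2 (-0.89 ± 0.11, edgeR adjusted p = 1.01e-06), the 2 members called (0.544% of all genes). For EGF at 1 h, 0 members were called by edgeR and by DESeq2 (0.138%), with 3 at an unadjusted p under 0.05. EGF at 12 h raised KLF2 and KLF6 more in BT474R than in BT474, with differences for KLF2 (0.72 ± 0.13) and KLF6 (0.42 ± 0.09), the 2 members called (1.96%), and the KLF6 difference was not called without replicate 1 of BT474 vehicle, at 0.39. At 24 h the HRG effect was smaller in BT474R for KLF2 (-0.90 ± 0.15), KLF3 (-0.51 ± 0.07) and KLF6 (-0.33 ± 0.09), 3 of 10 members (3.33%). For KLF2 it was -0.64 without HRG replicate 1 of BT474R. The KLF6 value ran from -0.46 to -0.19 as single libraries were left out, with the smaller value without BT474R vehicle replicate 2, and was called in 3 of 8 such fits. Over ligands and times, 9 of 60 member tests between the lines were called, beside 2.34% of all gene tests.

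**Figure D3:**
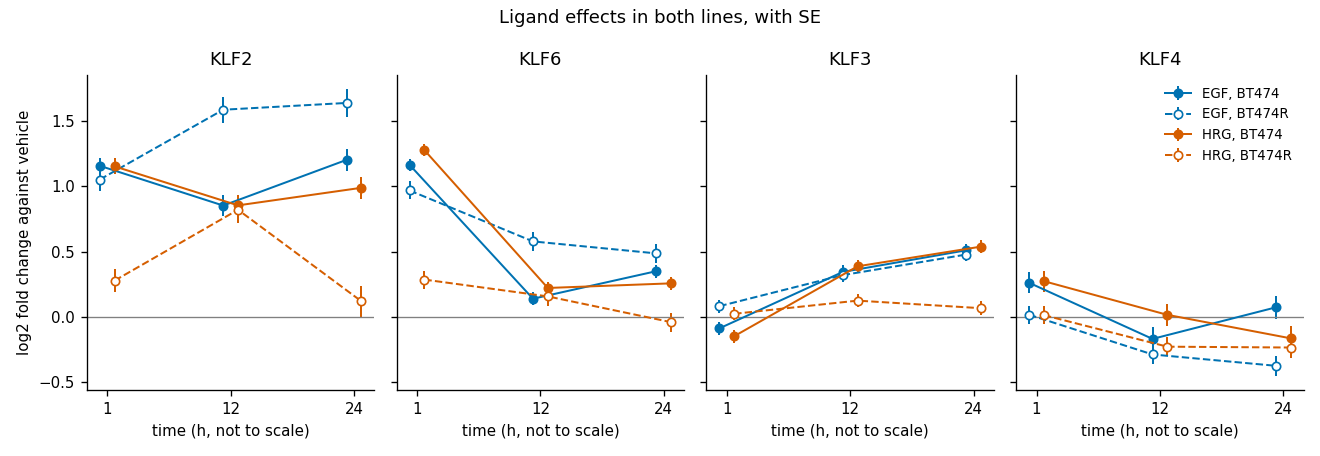
Log2 fold change against vehicle (points, with SE bars) of KLF2, KLF6, KLF3 and KLF4 at 1, 12 and 24 h, by ligand (colour) and line (filled and solid for BT474, open and dashed for BT474R). The BT474R HRG line lies lowest for KLF2 and KLF6 at 1 h, and for KLF2, KLF3 and KLF6 at 24 h.

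KLF3, a CtBP-recruiting repressor, responded late. In BT474 it was at 69.7 and 65.3 CPM at T0 and, at 1 h, at 83.5 and 79.7 CPM with vehicle, 81.1 and 74.8 CPM with EGF and 75.7 and 72.6 CPM with HRG, and neither ligand value was called. At 12 h EGF libraries held 90.2 and 89.1 CPM and HRG libraries 92.8 and 93.8 CPM, against 70.4 and 69.4 CPM with vehicle. At 24 h they held 85.6 and 92.3 CPM and 90.2 and 92.9 CPM, against 61.9 and 62.3 CPM. No ligand library overlapped vehicle at either late time.

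The KLF3 effects in BT474 were 0.34 ± 0.05 for EGF and 0.39 ± 0.05 for HRG at 12 h and 0.51 ± 0.05 and 0.54 ± 0.05 at 24 h, with edgeR adjusted p of 2.38e-06 or less. In BT474R, EGF libraries were at 160 and 160 CPM at 12 h and 173 and 171 CPM at 24 h, above vehicle at 128 and 128 CPM and 118 and 129 CPM. HRG libraries were at 142 and 141 CPM and 125 and 131 CPM. EGF effects were 0.32 ± 0.05 and 0.48 ± 0.05 (edgeR adjusted p = 1.48e-04 and 5.75e-07), and HRG values of 0.12 ± 0.05 and 0.07 ± 0.05 did not pass. HRG was below EGF by -0.41 ± 0.05 at 24 h (edgeR adjusted p = 1.39e-05). At 12 h the value was -0.20 ± 0.05, which DESeq2 called and edgeR did not (edgeR adjusted p = 0.0651). KLF3 was the 1 member called by edgeR and by DESeq2 for a difference of its HRG effect between the lines at 12 h, of -0.28 ± 0.07 (edgeR adjusted p = 0.0146, 4.07% of all genes), and this was called in 1 of 8 fits that left out a library, at -0.29 to -0.25. The gene has an antisense neighbour, KLF3-AS1, and the strand setting of the counting is not given in the sources used here.

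KLF4, a factor of epithelial differentiation and cell reprogramming, was called in 2 of 12 ligand comparisons. In BT474 it was at 21.7 and 24.2 CPM with vehicle at 1 h, 27.5 and 28.4 CPM with EGF and 28.2 and 27.7 CPM with HRG, and the values of 0.26 ± 0.08 and 0.27 ± 0.08 did not pass (edgeR adjusted p = 0.0786 and 0.0611). The HRG value was called with a replicate block, without a filter and with DESeq2's size factors. In BT474R it fell with EGF, from 30.2 and 32.5 CPM to 25.4 and 26.1 CPM at 12 h and from 29.4 and 31.5 CPM to 22.4 and 24.5 CPM at 24 h. The effects were -0.29 ± 0.08 (edgeR adjusted p = 0.0148) and -0.37 ± 0.08 (edgeR adjusted p = 0.00147). The first was called only without vehicle replicate 1, with -0.20 without vehicle replicate 2, and the second without any 1 library. By edgeR, KLF4 was the 1 member called for a difference of its EGF effect between the lines at 24 h, of -0.45 ± 0.12 (edgeR adjusted p = 0.0209, 4.01% of all genes), called in 4 of 8 fits that left out a library, at -0.54 to -0.36. DESeq2 called KLF4 and KLF2 there, with a KLF2 value of 0.43 ± 0.14 by edgeR (edgeR adjusted p = 0.0778).

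KLF5, which promotes proliferation in many epithelia, moved little. EGF lowered it in BT474R at 12 h, to 49.7 and 50.8 CPM from 61.5 and 59.5 CPM with vehicle (-0.27 ± 0.07, edgeR adjusted p = 0.0125). HRG raised it in BT474 at 24 h, to 36.3 and 34.7 CPM from 29.5 and 31.4 CPM (0.20 ± 0.07, edgeR adjusted p = 0.0244). Neither pair of groups overlapped. The first was not called without any 1 of its libraries (-0.28 to -0.24). The second ran from 0.16 to 0.26 and was not called without vehicle replicate 1 or HRG replicate 1.

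KLF9, a Sin3A-recruiting factor that glucocorticoid, progesterone and thyroid hormone receptors induce, was called up early and down late with HRG in BT474. At 1 h it was at 29.9 and 31.7 CPM with vehicle, 39.5 and 37.4 CPM with EGF (0.30 ± 0.07, edgeR adjusted p = 0.00842) and 43.4 and 37.0 CPM with HRG (0.37 ± 0.07, edgeR adjusted p = 4.72e-04). Vehicle libraries were at 24.7 and 24.0 CPM at 12 h and 20.9 and 21.4 CPM at 24 h. HRG libraries lay below these, at 21.4 and 20.9 CPM and 18.6 and 17.7 CPM (-0.23 ± 0.08 and -0.24 ± 0.08, edgeR adjusted p = 0.0185 and 0.0209). DESeq2 and 1 fit of all 40 libraries did not call either late value, and leaving out single libraries kept the call in 0 of 4 and 1 of 4 fits. The early EGF value was not called without replicate 1 of vehicle (0.27) or of EGF, nor the early HRG value without HRG replicate 1 (0.28).

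The KLF9 effect at 12 h differed from that at 1 h, by -0.46 ± 0.10 for EGF and -0.61 ± 0.10 for HRG in BT474, and both differences were called without any 1 library. In BT474R the gene was at 3.26 to 10.3 CPM in all libraries, and no ligand value was called. Its EGF effect there differed by -0.79 ± 0.20 between the times (edgeR adjusted p = 0.0200). This was not called by DESeq2 and was called in 3 of 8 fits that left out a library, at -0.91 to -0.61.

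KLF10, the TGF-beta inducible early gene, was raised in BT474. Vehicle libraries at 1 h held 45.9 and 46.2 CPM, EGF libraries 54.2 and 58.1 CPM (0.26 ± 0.06, edgeR adjusted p = 0.0150) and HRG libraries 68.0 and 63.8 CPM (0.51 ± 0.07, edgeR adjusted p = 4.02e-07). HRG libraries lay above EGF libraries, though the difference of 0.25 ± 0.06 did not pass (edgeR adjusted p = 0.173). At 24 h, vehicle held 36.5 and 33.4 CPM, EGF 41.5 and 40.2 CPM (0.22 ± 0.07) and HRG 46.0 and 41.5 CPM (0.31 ± 0.07). At 12 h the HRG effect was 0.25 ± 0.07.

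The HRG effects on KLF10 at 1 h and 24 h were called without any 1 library. The EGF effect at 1 h was called only without EGF replicate 1, ran from 0.20 to 0.33, and was not called in 1 fit of all 40 libraries, and the EGF effect at 24 h was not called in that fit, nor without vehicle replicate 2 (0.15) or EGF replicate 1. The HRG effect at 12 h was not called without HRG replicate 2 (0.15) or vehicle replicate 1. In BT474R no ligand value was called, and the largest was 0.34 ± 0.10 with EGF at 1 h (41.4 and 42.3 CPM against 34.1 and 32.2 CPM, edgeR adjusted p = 0.350).

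KLF13, a relative of KLF9 that is also known as a regulator of chemokine expression in T cells, was below vehicle late. It was at 27.8 and 29.2 CPM at T0 in BT474 and at 21.4 and 23.8 CPM with vehicle at 1 h. EGF libraries at 1 h held 23.9 and 24.0 CPM and HRG libraries 23.9 and 24.7 CPM, and neither value was called. The late differences thus include a higher vehicle level at 12 h and 24 h than at 1 h. In BT474 it was at 30.9 and 29.0 CPM with vehicle at 12 h, 26.0 and 22.3 CPM with EGF (-0.32 ± 0.08, edgeR adjusted p = 0.00309) and 22.2 and 21.8 CPM with HRG (-0.48 ± 0.08, edgeR adjusted p = 8.58e-06). At 24 h it was at 28.9 and 27.1 CPM, 24.2 and 20.5 CPM (-0.33 ± 0.08) and 21.9 and 19.5 CPM (-0.45 ± 0.08). No ligand library reached a vehicle library of its time. The HRG effects were called without any 1 library. The EGF effect at 12 h was not called without EGF replicate 2 (-0.21) or vehicle replicate 1, and that at 24 h not without EGF replicate 2 (-0.23).

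In BT474R, KLF13 with EGF was at 37.4 and 39.2 CPM at 12 h and 40.1 and 39.4 CPM at 24 h, against 44.2 and 46.3 CPM and 45.7 and 50.1 CPM with vehicle (-0.24 ± 0.07 and -0.27 ± 0.07, edgeR adjusted p = 0.0256 and 0.00905). The first was not called without any 1 of its libraries, at -0.27 to -0.18, and the second not without EGF replicate 2 or vehicle replicate 2 (-0.19). The HRG value of -0.24 ± 0.07 at 12 h missed the threshold (edgeR adjusted p = 0.0555). The count table holds 2 further rows that repeat the name of KLF13, and of the counts of the 3 rows 43.9% lie in the KLF13 row and 28.7% and 27.4% in the others, so the level of the gene is uncertain. With the rows summed, the HRG value in BT474R at 12 h was called, as were the differences of the HRG effect between the lines at 12 h (0.29) and 24 h (0.33), which the KLF13 row alone did not give.

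KLF11, a TGF-beta inducible relative of KLF10, was called in 0 of 12 ligand comparisons by edgeR and by DESeq2, and its unadjusted p was under 0.05 in 0. In BT474 it lay between 19.4 and 25.6 CPM in all libraries after T0. In BT474R replicates at 24 h were far apart, at 57.1 and 85.8 CPM with vehicle and 66.6 and 94.0 CPM with HRG, while EGF libraries held 85.7 and 84.5 CPM. Its EGF value at 24 h was 0.25 ± 0.14, and without vehicle replicate 2 it was 0.59 and called. Its HRG value of 0.19 was called without vehicle replicate 2 (0.52) or HRG replicate 1. KLF15, a metabolic regulator induced by glucocorticoids, had 7 to 32 counts a library in BT474 and 0 to 8 in BT474R, and it too was called in 0 of 12 ligand comparisons by both tools, with 0 unadjusted p under 0.05. At such counts a change as large as that of KLF6 need not be detectable.

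The change with time was tested for all members as the ligand effect at 12 h minus that at 1 h. A change of this kind is one of the difference from vehicle, not of the level of the gene. In BT474 with EGF, the effect was higher at 12 h for KLF3 and lower for KLF4, KLF6, KLF9 and KLF13 (7.72% of all genes called). With HRG it was higher for KLF3 and lower for KLF2, KLF6, KLF9 and KLF13 (14.2%). DESeq2 did not call KLF13 with EGF or KLF2 with HRG. The change for KLF3 was 0.43 ± 0.07 with EGF and 0.53 ± 0.07 with HRG, and for KLF13 -0.38 ± 0.11 and -0.57 ± 0.12. In BT474R with EGF, the effect was higher at 12 h for KLF2 (0.53 ± 0.13) and lower for KLF6 (-0.39 ± 0.10) and KLF9 (4.43%). The level of KLF2 with EGF went from 102 and 106 CPM at 1 h to 47.6 and 51.9 CPM at 12 h. Vehicle went from 49.8 and 50.8 CPM to 17.2 and 16.0 CPM. DESeq2 called KLF3 there too, and did not call KLF9. The KLF6 change was called in 1 of 8 fits that left out a library, at -0.46 to -0.30. With HRG in BT474R, edgeR called 0 members (0.992%), with 4 at an unadjusted p under 0.05, and DESeq2 called KLF2, whose value was 0.54 ± 0.14. Between 12 h and 24 h, edgeR called 0 members in all 4 sets (0.517% and 2.50% of all genes in BT474 and 0.185% and 0.0288% in BT474R, for EGF and HRG), with 1 to 3 at an unadjusted p under 0.05, and DESeq2 called KLF2 with HRG in BT474R alone (-0.70 ± 0.16). In all, 13 of 80 member tests of a change with time were called, beside 3.86% of all gene tests.

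Vehicle cells at 1 h had higher levels of most members than T0 cells. At 1 h against T0, vehicle raised KLF2, KLF3, KLF4, KLF5, KLF6, KLF10 and KLF11 and lowered KLF13 in BT474, 8 of 10 members (6.61% of all genes called). In BT474R it raised KLF2, KLF3, KLF4, KLF5, KLF6 and KLF9 (2.24%). KLF2 rose by 1.75 ± 0.08 in BT474 and 1.77 ± 0.10 in BT474R, which is 3.37-fold and 3.41-fold. KLF6 rose by 0.92 ± 0.05 and 1.06 ± 0.07.

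KLF4 was at 16.1 and 16.6 CPM at T0 in BT474 and 21.7 and 24.2 CPM with vehicle at 1 h, and at 30.4 and 32.5 CPM and 50.04 and 53.3 CPM in BT474R, rises of 0.50 ± 0.09 and 0.72 ± 0.07 that did not rest on 1 library. KLF3 rose by 0.28 ± 0.05 and 0.27 ± 0.05 and KLF5 by 0.31 ± 0.07 and 0.37 ± 0.07. The KLF5 rise in BT474 was not called without replicate 2 of vehicle (0.24) or of T0, that of KLF10 not without T0 replicate 2 (0.28), and the fall of KLF13 not without vehicle replicate 1 (-0.25) or T0 replicate 2. In BT474R the KLF3 rise was not called without T0 replicate 1 (0.23) or vehicle replicate 2, and that of KLF5 not without vehicle replicate 2 (0.34). KLF11 rose in BT474, from 16.2 and 16.6 CPM to 22.8 and 24.1 CPM (0.53 ± 0.09). The BT474R rise of KLF9, from 5.52 and 5.24 CPM to 8.04 and 7.71 CPM, was 0.55 ± 0.14 (edgeR adjusted p = 0.0338) and was not called by DESeq2 or without any 1 of its libraries, at 0.51 to 0.58.

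At 12 h against T0, KLF11 was still higher and KLF9 lower in BT474 (6.41% of all genes), and edgeR called 0 members in BT474R (1.13%), with 1 at an unadjusted p under 0.05 and 0 by DESeq2. The KLF11 value of 0.31 ± 0.09 was not called by DESeq2 or in 1 fit of all 40 libraries, and without single libraries it ran from 0.23 to 0.38 and was called only without vehicle replicate 1. At 24 h in BT474, KLF11 was higher (0.42 ± 0.09) and KLF9 (-0.54 ± 0.08) and KLF6 (-0.22 ± 0.05) were lower than at T0 (11.4%). The KLF6 value was -0.12 and not called without vehicle replicate 2, and also not called without T0 replicate 1. In BT474R at 24 h, KLF10 was higher, at 45.3 and 50.5 CPM against 31.6 and 33.4 CPM (0.57 ± 0.11), as was KLF6 (0.35 ± 0.07), and KLF5 was lower (-0.24 ± 0.07), 3 of 10 members (13.7%). Without vehicle replicate 2 the KLF6 value was 0.19, and without vehicle replicate 1 the KLF5 value was -0.13, and neither was called. KLF6 was also not called without T0 replicate 1, nor KLF5 without either T0 library. Over the 6 comparisons with T0, 22 of 60 member tests were called, 17 up and 5 down, beside 6.93% of all gene tests. The 3 vehicle groups of a line share its T0 libraries.

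**Figure D4:**
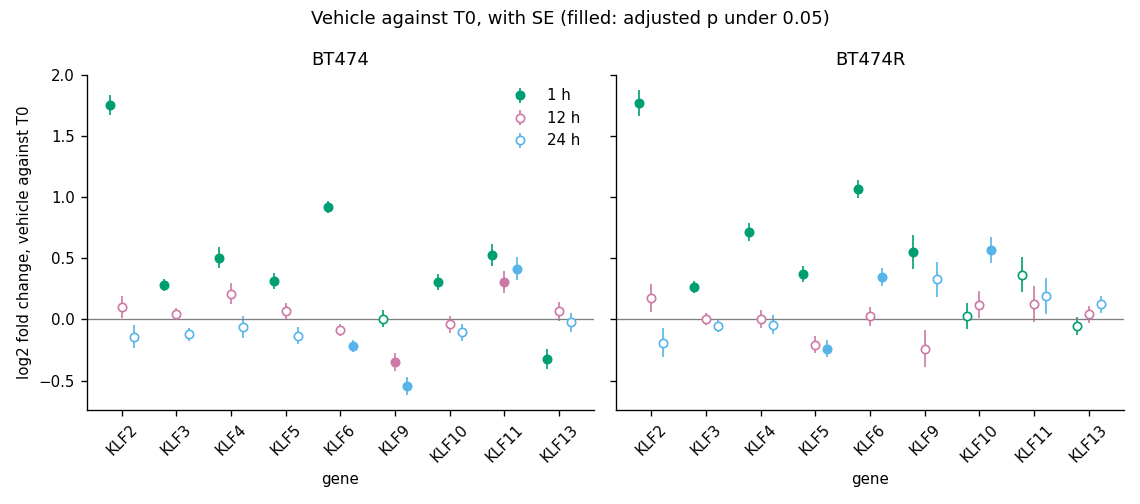
Log2 fold change of vehicle against T0 (points, with SE bars) for 9 members at 1, 12 and 24 h in BT474 (left) and BT474R (right), filled where the edgeR adjusted p was under 0.05. The 1 h points of KLF2, KLF6 and KLF4 stand above zero in both lines, and those of 12 h and 24 h lie nearer to it.

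At T0 the lines already differed in most members. BT474R had higher KLF2, KLF3, KLF4, KLF5, KLF11 and KLF13 and lower KLF6, KLF9 and KLF15, 9 of 10 members, in a comparison in which 46.9% of all genes were called. BT474R is 1 clone, so a line difference cannot be told apart from a difference of that clone.

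KLF11 was at 63.5 and 62.3 CPM in BT474R and 16.2 and 16.6 CPM in BT474, 3.83-fold higher (1.94 ± 0.14, edgeR adjusted p = 2.68e-14). KLF9 was at 5.52 and 5.24 CPM in BT474R and 31.5 and 30.3 CPM in BT474, 5.75-fold lower (-2.52 ± 0.11, edgeR adjusted p = 1.99e-21). These 2 members had the most separated levels apart from KLF15. KLF15 held 0.928 and 0.734 CPM in BT474, and its counts in BT474R at T0 were at the floor of 3 counts per library, so the gene was at least 5.19-fold lower there. It was at the floor in 5 of the 10 BT474R groups and in 0 of the 10 BT474 groups, and floors cover counting error only.

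KLF5 was at 70.2 and 70.4 CPM in BT474R and 34.8 and 31.9 CPM in BT474 (1.07 ± 0.07), KLF4 at 30.4 and 32.5 CPM and 16.1 and 16.6 CPM (0.95 ± 0.09), and KLF3 at 126 and 131 CPM and 69.7 and 65.3 CPM (0.93 ± 0.05). KLF13 differed by 0.64 ± 0.08. The differences of KLF2 (0.28 ± 0.11, edgeR adjusted p = 0.0342) and KLF6 (-0.17 ± 0.07, edgeR adjusted p = 0.0286) were small. That of KLF2 was not called by DESeq2, with a replicate block, with filterByExpr or with DESeq2's size factors, and was 0.14 without replicate 1 of BT474. That of KLF6 was not called without replicate 1 of either line. KLF10 was at 38.7 and 36.3 CPM in BT474 and 31.6 and 33.4 CPM in BT474R (-0.21, edgeR adjusted p = 0.0752). It was called by DESeq2, and by edgeR without a filter, with filterByExpr and with DESeq2's size factors.

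**Figure D5:**
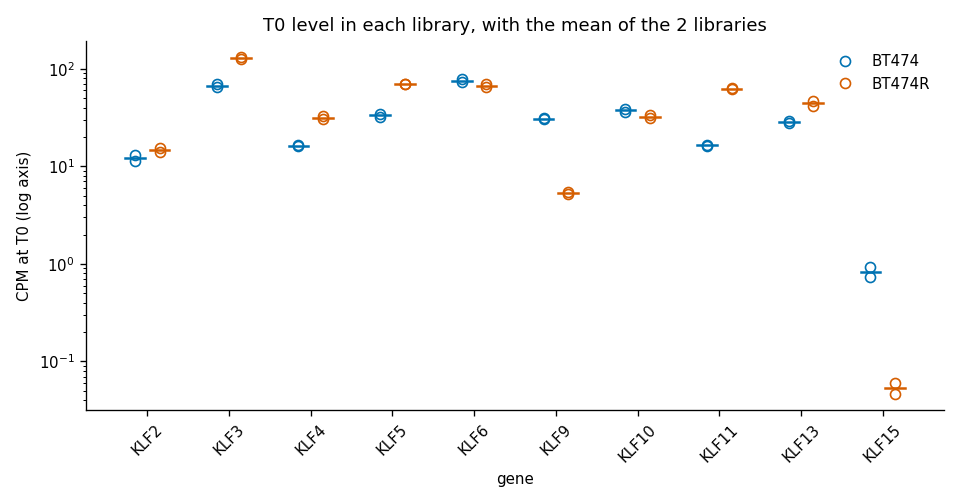
CPM of each member at T0 on a log axis, with 1 circle for each library and a bar at the mean of the 2 libraries, in BT474 and BT474R. KLF9 and KLF15 lie lower in BT474R and KLF11, KLF5, KLF4 and KLF3 higher, while KLF2, KLF6 and KLF10 lie close in the 2 lines.

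Across the 10 groups of a line, KLF2 had the widest range of the members above 1 CPM, with its highest mean level, with EGF at 1 h, 8.33 times its lowest, with vehicle at 24 h, in BT474 and 8.09 times in BT474R. The order of the other levels differed by line. In BT474, HRG at 1 h followed EGF at 1 h and overlapped it, then came vehicle at 1 h and EGF at 24 h without overlap, then HRG at 12 h, EGF at 12 h and HRG at 24 h, each overlapping the next, and last vehicle at 12 h, T0 and vehicle at 24 h, which also overlapped. In BT474R, EGF at 1 h was followed by HRG at 1 h, vehicle at 1 h and EGF at 12 h, of which the last 2 overlapped, and then by EGF at 24 h, HRG at 12 h and vehicle at 12 h without overlap, while T0, HRG at 24 h and vehicle at 24 h overlapped at the low end. For KLF6 the highest level was 5.31 times the lowest in BT474 and 4.09 times in BT474R. For KLF9 these were 2.21 and 3.01, for KLF4 1.98 and 2.23, for KLF10 1.89 and 1.72, and for KLF3, KLF5, KLF11 and KLF13 between 1.25 and 1.81. Neighbouring groups overlapped in 2 of 9 steps of the KLF6 order in each line and in 8 of 9 steps for KLF11 in BT474.

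The 20 group means of log2 CPM, which share libraries, lines and scaling, are used here as a description. KLF2 and KLF6 had a Pearson r of 0.91. The highest r were 0.95 for KLF3 and KLF11, 0.94 for KLF9 and KLF15 and 0.92 for KLF4 and KLF5. KLF9 and KLF11 had an r of -0.89. Both genes differed between the lines at T0 in every pair named here, by little in KLF2 and KLF6. Of 15058 other genes, those most like KLF2 were PLK3 (0.942), ERRFI1 (0.938), a feedback inhibitor of the EGF receptor, and FOSL1 (0.937), an AP-1 subunit. Those most like KLF6 were JUN (0.978), NR4A3 (0.968) and IER2 (0.965), all early response genes. For KLF3 they were SHROOM3, IRF2BP2 and S100P (0.981 to 0.982), for KLF4 ZNF35, ARHGAP29 and SUSD6 (0.952 to 0.954), for KLF5 RPS6KC1, UHRF1BP1L and HECTD4 (0.971 to 0.978), and for KLF10 BTN2A1, POLH and ADM (0.849 to 0.893). The genes most like KLF11 (SLC30A7, KIF3B, TMEM127), KLF13 (GTF2IP1, TRMT1L and its own copy row) and KLF15 (WDR59, LAMTOR1, STARD13) had r of 0.975 to 0.992.

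Other genes of the family and of its pathways were taken from lists. Of 16 further KLF and SP genes, 12 were tested in BT474 and 13 in BT474R. In BT474 1 rose at 1 h with each ligand, beside 2.19% of all genes for EGF and 2.77% for HRG. At 12 h in BT474, EGF raised 2 and lowered 2 (16.0% of all genes called) and HRG raised 2 and lowered 4 (25.8%). In BT474R at 12 h, EGF raised 4 and lowered 1 (12.0%), and HRG lowered 1 (4.12%). The median change of the tested list genes at 12 h with EGF was -0.04 in BT474 and 0.15 in BT474R, with -0.03 and -0.01 for all genes.

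KLF8, a CtBP-recruiting repressor like KLF3, was lower with both ligands at 12 h and 24 h in both lines, from -0.51 ± 0.08 with EGF at 12 h in BT474 to -0.94 ± 0.07 with EGF at 24 h in BT474R. SP6, an epithelial SP factor, rose in 5 of 12 comparisons, most with HRG at 24 h in BT474, by 1.17 ± 0.18 from a mean of 2.37 CPM with vehicle to 5.51 CPM. KLF7 rose early in BT474, by 0.44 ± 0.06 after EGF and by 0.61 ± 0.06 after HRG.

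Of 11 genes of the ERK5 and MEF2 pathway, which controls KLF2 and KLF4 in endothelium, EGF and HRG each raised 1 at 1 h in BT474 (2.19% and 2.77% of all genes called). At 12 h in BT474 each ligand raised 1 and lowered 2 (16.0% and 25.8%). HDAC4, a class IIa histone deacetylase that represses MEF2, rose in 8 of 12 comparisons, by 0.40 ± 0.07 with EGF at 12 h in BT474 and by 0.78 ± 0.07 in BT474R. HDAC5, its relative, fell in 8 of 12, by -1.23 ± 0.09 with HRG at 12 h in BT474. MAP2K5, which encodes the kinase that activates ERK5, fell in 5 of 12, by -0.40 ± 0.10 with EGF at 12 h in BT474.

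Of 17 corepressors, coactivators and turnover factors of KLF proteins, 1 rose with HRG at 1 h in BT474 (2.77% of all genes called). At 12 h, HRG raised 4 and lowered 3 in BT474 (25.8%), and EGF raised 1 and lowered 4 in BT474R (12.0%). FBXW7, a ubiquitin ligase subunit that targets KLF5, rose with EGF at 12 h in BT474 (0.34 ± 0.09) and fell in BT474R (-0.27 ± 0.07), and the difference between the lines was -0.63 ± 0.11 (edgeR adjusted p = 5.40e-04). WWP1, another ubiquitin ligase for KLF5, rose with HRG at 1 h (0.21 ± 0.04) and fell at 12 h (-0.24 ± 0.04) in BT474. SMURF1 rose in 3 of 12 comparisons, by 0.32 ± 0.06 at most, with EGF at 24 h in BT474R.

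The list of 12 glucocorticoid and progesterone receptor targets, a class to which KLF9 and KLF15 belong, includes the receptor genes NR3C1 and PGR themselves. Of these 12 genes, HRG raised 1 and lowered 4 at both 12 h and 24 h in BT474 (25.8% and 24.1% of all genes called). PGR, the progesterone receptor, fell at 24 h in BT474 by -1.24 ± 0.05 with EGF and -1.47 ± 0.05 with HRG, from a mean of 710 CPM with vehicle to 301 and 259 CPM, and at T0 it was at 877 CPM in BT474 and 22.6 CPM in BT474R. DUSP1 had 1 h effects of 1.64 ± 0.07 (EGF) and 1.84 ± 0.07 (HRG) in BT474, both called, and rose by 1.04 ± 0.12 with EGF in BT474R. At 24 h it fell with HRG in BT474 (-0.30) and with EGF in BT474R (-0.38). PER1 rose at 1 h in BT474, by 0.82 ± 0.09 and 0.88 ± 0.10, and its later values there were called falls of -0.43 (EGF, 12 h), -0.62 (HRG, 12 h) and -0.54 (HRG, 24 h).

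The list of 12 TGF-beta early response genes includes the ligand gene TGFB1 and the receptor genes TGFBR1 and TGFBR2. At 12 h in BT474, EGF raised 3 of the 12 and lowered 1 (16.0% of all genes called), and HRG raised 4 and lowered 1 (25.8%). At 12 h in BT474R, EGF raised 4 and lowered 0 (12.0%), and HRG raised 1 (4.12%). BHLHE40, a circadian and stress repressor, rose in 7 of 12 comparisons, from 12.96 CPM with vehicle to 32.5 CPM with EGF at 24 h in BT474 (1.31 ± 0.11) and from 89.1 to 238 CPM in BT474R (1.42 ± 0.17). SKIL, a SMAD corepressor, rose early in BT474, by 0.47 ± 0.08 after EGF and by 0.59 ± 0.08 after HRG. SMAD7, an inhibitor of TGF-beta signalling, fell with HRG at 24 h in BT474 by -0.69 ± 0.09.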

How the data were processed

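Poly(A) RNA libraries (Kapa mRNA HyperPrep) of 40 samples were sequenced, and the authors trimmed the reads and deposited a table of raw gene-level counts. The submitters' notes name Trim Galore 0.6.6, FastQC, MultiQC and featureCounts and the build GRCh38.p13. Mapping was done with Rsubread. How strand and reads with several matches were handled, and which annotation release was used, are not given in the sources used here. Some gene names are repeated in numbered copy rows, and whether these split the reads of a gene is not given in these sources.

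From these deposited counts, genes with at least 1 count in 50% of the libraries of a fit were kept, scaled by TMM and tested by edgeR 4.0.16's quasi-likelihood test (R 4.3.3, limma 3.58.1) with Benjamini-Hochberg adjustment. Each line was fitted on its 20 libraries, and both lines together for T0 and for interactions, 39 comparisons in all. The SE was derived from the coefficient and its F statistic. Leaving out a library from the fit of both lines kept the dispersion trend of the full fit. Tests were checked on simulated data. Alternatives were DESeq2 1.42.0, its size factors, filterByExpr, no filter, a replicate block, 1 fit of all 40 libraries and leaving out each library, and, chosen after seeing the data, summed copy rows of KLF13.

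The members and lists were chosen with earlier results of these data known. All 10 members are named in every comparison, with the 3 genes most like each (those of KLF9 are not reported here) and up to 3 genes of each other list called in most ligand comparisons. Samples were grouped by their labels, with 2 libraries in each group. Treatments were made in duplicate, but whether the duplicates came from separately grown cultures or other days is not given in the sources used here, so p-values measure only the spread between these libraries, which may be technical. Floors cover counting error only, while the SE includes the estimated spread between these libraries. Library totals of 16794594 to 33387936 counts leave genes of a few counts, such as KLF15, imprecise.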

Additional observations from a re-analysis of the deposited data

Results flagged for a closer look

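These differences between times or lines passed the edgeR quasi-likelihood test of the difference itself. The ligand effect at 12 h minus that at 1 h in BT474 with EGF was 0.43 for KLF3, -0.43 for KLF4, -1.02 for KLF6, -0.46 for KLF9 and -0.38 for KLF13. With HRG in BT474 it was -0.30 for KLF2, 0.53 for KLF3, -1.05 for KLF6, -0.61 for KLF9 and -0.57 for KLF13. With EGF in BT474R it was 0.53 for KLF2, -0.39 for KLF6 and -0.79 for KLF9. DESeq2 did not call KLF13 with EGF or KLF2 with HRG in BT474, nor KLF9 with EGF in BT474R. Of 8 fits that each left out a library, the call held in 4 for KLF4 with EGF in BT474 (-0.32 without EGF 12 h replicate 1), in 3 for KLF13 with EGF in BT474 (-0.27 without EGF 12 h replicate 2), in 1 for KLF2 with HRG in BT474 (-0.25 without vehicle 12 h replicate 2) and in 4 for KLF2 with EGF in BT474R (0.48 without EGF 12 h replicate 2).

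The ligand effect in BT474R minus that in BT474 was 0.72 for KLF2 and 0.42 for KLF6 with EGF at 12 h, and -0.45 for KLF4 with EGF at 24 h. With HRG it was -0.89 for KLF2 and -1.01 for KLF6 at 1 h, -0.28 for KLF3 at 12 h, and -0.90 for KLF2, -0.51 for KLF3 and -0.33 for KLF6 at 24 h. EGF and HRG effects of the same line and time share their vehicle libraries. BT474R is 1 clone, and clone and resistance cannot be told apart.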

How the results depend on the processing

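In the 12 ligand comparisons and the T0 comparison, and in the totals of the other families, the number of members called kept within 1.5 times its value under the alternatives run, except as given here, and no called direction reversed. In single comparisons of those other families, DESeq2 took the count from 2 to 1 for vehicle at 12 h against T0 in BT474, from 1 to 2 for the EGF effect at 24 h between the lines, and from 0 to 1 for both changes of the HRG effect with time in BT474R. For HRG at 1 h in BT474R the count of 0 became 2 without a filter on low counts and 1 in 1 fit of all 40 libraries. For HRG at 12 h in BT474R the count of 1 became 2 without a filter, 2 with summed copy rows of KLF13 and 2 with a replicate block. With single libraries left out, the counts ran from 2 to 3 for EGF at 1 h in BT474 (4 with all libraries), from 2 to 3 for EGF at 12 h in BT474 (4), from 3 to 4 for EGF at 12 h in BT474R (6) and from 0 to 3 for HRG at 24 h in BT474R (0), where the 3 came without HRG replicate 1. The causes were not tested. The main fits did not pair samples by replicate number. Deviations of same-numbered libraries correlated between -0.11 and 0.45 in 12 comparisons, over 0.1 in 4. These were EGF (0.21) and HRG (0.33) at 24 h in BT474 and HRG at 12 h (0.12) and 24 h (0.45) in BT474R. The replicate block was set for each line as a whole, and a pairing within single times was not tested. CPM from plain library totals moved some levels by more than the spread of 2 libraries.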
